A study of Mus musculus with 6 samples.

Results

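A set of 6 genes of early neutrophil formation was examined in hematopoietic stem cells of WT and Mcph1-/- mice: Mpo, Elane, Prtn3, Ms4a3, Csf3r and Cebpd. They are 6 of the 11108 genes with values in the table, and all 6 were found by symbol. The members were chosen on their measured levels in these same libraries, since several of them are high in single libraries of either genotype, so their levels are given as a description with no test. The libraries came from bone marrow cells sorted as lineage-negative, Sca-1+, c-Kit+, CD34- and CD150+, with 200 cells in each Smart-seq2 library (which copies whole transcripts into cDNA from a few cells) and paired 150-bp reads. There were 3 libraries from WT mice and 3 from Mcph1-/- mice, which lack microcephalin, known for its roles in DNA damage signalling and in the timing of chromosome condensation, and neither genotype was treated. The labels give no age, sex or strain, do not name the deleted part of Mcph1, and leave unsaid whether each library had its own mouse, so any p-value reflects the scatter among libraries alone, which may be technical. The count of Mcph1 itself was 160, 341 and 34.4 in WT and 428, 37.7 and 234 in Mcph1-/-, and since reads of the whole gene are summed, it does not check the genotype. Values are listed throughout in the order of replicates 1, 2 and 3.

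Neutrophils store their weapons in granules that are filled in a fixed order. The primary, or azurophil, granules form first, at the promyelocyte stage, and hold myeloperoxidase together with a family of serine proteases. The transcripts of these proteins appear in granulocyte-monocyte progenitors and are switched off before the later granules, which hold proteins such as cathelicidin and lactoferrin, are made. Factors of the C/EBP and PU.1 families act on many of these genes, and the cytokine G-CSF, through its receptor, drives the output of neutrophils. Stem cells carry low and variable levels of such lineage transcripts.

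The members fall into 3 roles. Mpo encodes myeloperoxidase, the haem enzyme that makes hypochlorous acid, while Elane encodes neutrophil elastase and Prtn3 proteinase 3, which are closely related serine proteases of the same granule. Ms4a3 encodes a membrane protein whose expression marks granulocyte-monocyte progenitors. Csf3r encodes the G-CSF receptor, and Cebpd the transcription factor C/EBP delta. On chromosome 10, Elane spans 79886247 to 79888215 and Prtn3 spans 79874476 to 79883174, both on the plus strand and 3073 bases apart (mm10, GENCODE vM21). Mpo lies on chromosome 11 from 87793581 to 87804413, Csf3r on chromosome 4 from 126024550 to 126044440 and Cebpd on chromosome 16 from 15887286 to 15891031, all on the plus strand, and Ms4a3 on chromosome 19 from 11629496 to 11640851, on the minus strand. Exons of Mpo overlap the antisense gene Gm11505, those of Prtn3 overlap Plppr3, and those of Cebpd overlap Spidr. No strand setting of the counting is given, so reads of these 3 members cannot be told apart from those of the overlapping gene.

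The upstream sequences of Mpo, Elane and Prtn3 are shown because these genes encode proteins of 1 granule but differed in how many libraries held them. Each line gives the 250 bases before the RefSeq gene start (GRCm38.p6, plus strand, 5′ to 3′), and capitals mark the word GAGGAAG, a core that PU.1 is known to bind. The windows are chr11:87793534-87793783 for Mpo, chr10:79886062-79886311 for Elane and chr10:79879417-79879666 for Prtn3, which lies inside the longer GENCODE span of Prtn3. The GENCODE starts of Mpo (87793581) and Elane (79886247) fall within their windows, so the bases after them also lie inside the GENCODE gene.
Mpo: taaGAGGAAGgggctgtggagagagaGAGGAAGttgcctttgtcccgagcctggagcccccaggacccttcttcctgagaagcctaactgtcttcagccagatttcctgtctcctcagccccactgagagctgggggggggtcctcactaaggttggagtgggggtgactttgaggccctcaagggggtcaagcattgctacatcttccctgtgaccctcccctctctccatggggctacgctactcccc
Elane: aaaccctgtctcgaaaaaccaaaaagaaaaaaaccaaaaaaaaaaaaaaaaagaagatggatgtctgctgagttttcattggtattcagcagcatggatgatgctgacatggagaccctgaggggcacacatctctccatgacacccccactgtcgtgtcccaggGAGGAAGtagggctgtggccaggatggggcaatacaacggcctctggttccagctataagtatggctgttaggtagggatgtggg
Prtn3: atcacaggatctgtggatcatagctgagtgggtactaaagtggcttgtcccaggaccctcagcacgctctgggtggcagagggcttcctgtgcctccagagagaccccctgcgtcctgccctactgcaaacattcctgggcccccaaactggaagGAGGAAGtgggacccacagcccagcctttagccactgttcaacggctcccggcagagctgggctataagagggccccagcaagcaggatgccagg

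Promoter windows of 300 bases, from 250 before to 50 after the RefSeq start, were found for 5 of the 6 members, Cebpd being the exception. On either strand, GAGGAAG was present in 4 of these 5, those of Mpo, Elane, Prtn3 and Csf3r, and in 13.6% of all 32851 promoter windows of that length. Its first base lay 85 bases before the start in Elane, 86 in Csf3r and 95 in Prtn3, and Mpo held it at 247 and at 224 bases before. These distances are from the RefSeq start, and the GENCODE starts of Mpo, Elane, Prtn3 and Csf3r lie further upstream. The C/EBP word TTGCNNAA was present in Ms4a3 alone, from 41 bases after the start, and in 10.8% of all windows. The words TGTGGT for RUNX, TAACGG for MYB and AGATAA for GATA factors were in 0 of the 5 windows, and in 16.8%, 2.76% and 11.2% of all windows. The 5 words do not overlap each other in these windows. Only these exact words were searched for, so variants that the same factors may bind are not covered.

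Levels are normalised read counts, that is, reads scaled by the size factor of their library. Mpo stood at 5959, 1.03 and 2.02 in WT, and at 1.82, 53.3 and 4856 in Mcph1-/-. These values rest on 5495, 1 and 2 reads in WT and on 2, 65 and 5439 reads in Mcph1-/-. A single library of each genotype was therefore high, and the groups overlapped. Within WT, replicate 1 was at least 1928-fold above replicate 2 and 1962-fold above replicate 3, each taken at a floor of 3 reads per library, and within Mcph1-/- replicate 3 was 91.1-fold above replicate 2.

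Elane was high in the same libraries. It stood at 3614, 138 and 1.01 in WT (3333, 134 and 1 reads) and at 3.65, 0 and 8095 in Mcph1-/- (4, 0 and 9067 reads). WT replicate 2 held an intermediate level that Mpo did not share, at 134 Elane reads to 1 Mpo read. WT replicate 1 exceeded replicate 2 by 26.2-fold, and Mcph1-/- replicate 3 exceeded replicate 1 by 2219-fold, on 4 reads in the latter. In Mcph1-/- replicate 2 the roles were the other way round, with 65 Mpo reads and 0 Elane reads, where 0 reads allow a normalised count of up to 2.46.

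Prtn3, next to Elane on the chromosome, was abundant in every library. It stood at 7287, 6426 and 2425 in WT and at 2990, 3247 and 5459 in Mcph1-/-. The highest library was 3-fold above the lowest, and the groups overlapped. The highest library of each genotype was again WT replicate 1 and Mcph1-/- replicate 3, but WT replicate 2 was close to the former. In Mcph1-/- replicate 2 there were 3958 Prtn3 reads beside 0 Elane reads, and in WT replicate 3 there were 2396 beside 1.

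Ratios of reads within a library do not depend on its size factor. Elane to Mpo was 0.607 in WT replicate 1 (exact 95% interval 0.581 to 0.633) and 1.67 in Mcph1-/- replicate 3 (1.61 to 1.72). These and the following intervals are Clopper-Pearson or Wilson intervals. They and the floors hold for counting error alone, because without molecular identifiers 2 reads may copy 1 molecule. The 2 libraries rich in both transcripts thus differed in their balance beyond counting error, although with 1 library each this says nothing of the genotypes. Mpo to Prtn3 was 0.818 (0.789 to 0.848) in WT replicate 1 and 0.890 (0.858 to 0.923) in Mcph1-/- replicate 3, against at most 0.0164 in the other 4 libraries. Together Mpo, Elane and Prtn3 took 0.192% of reads in WT replicate 1 (Wilson 95% interval 0.189 to 0.195) and 0.217% in Mcph1-/- replicate 3 (0.214 to 0.220), against 0.0277% to 0.0754% in the others.

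**Figure D1:**
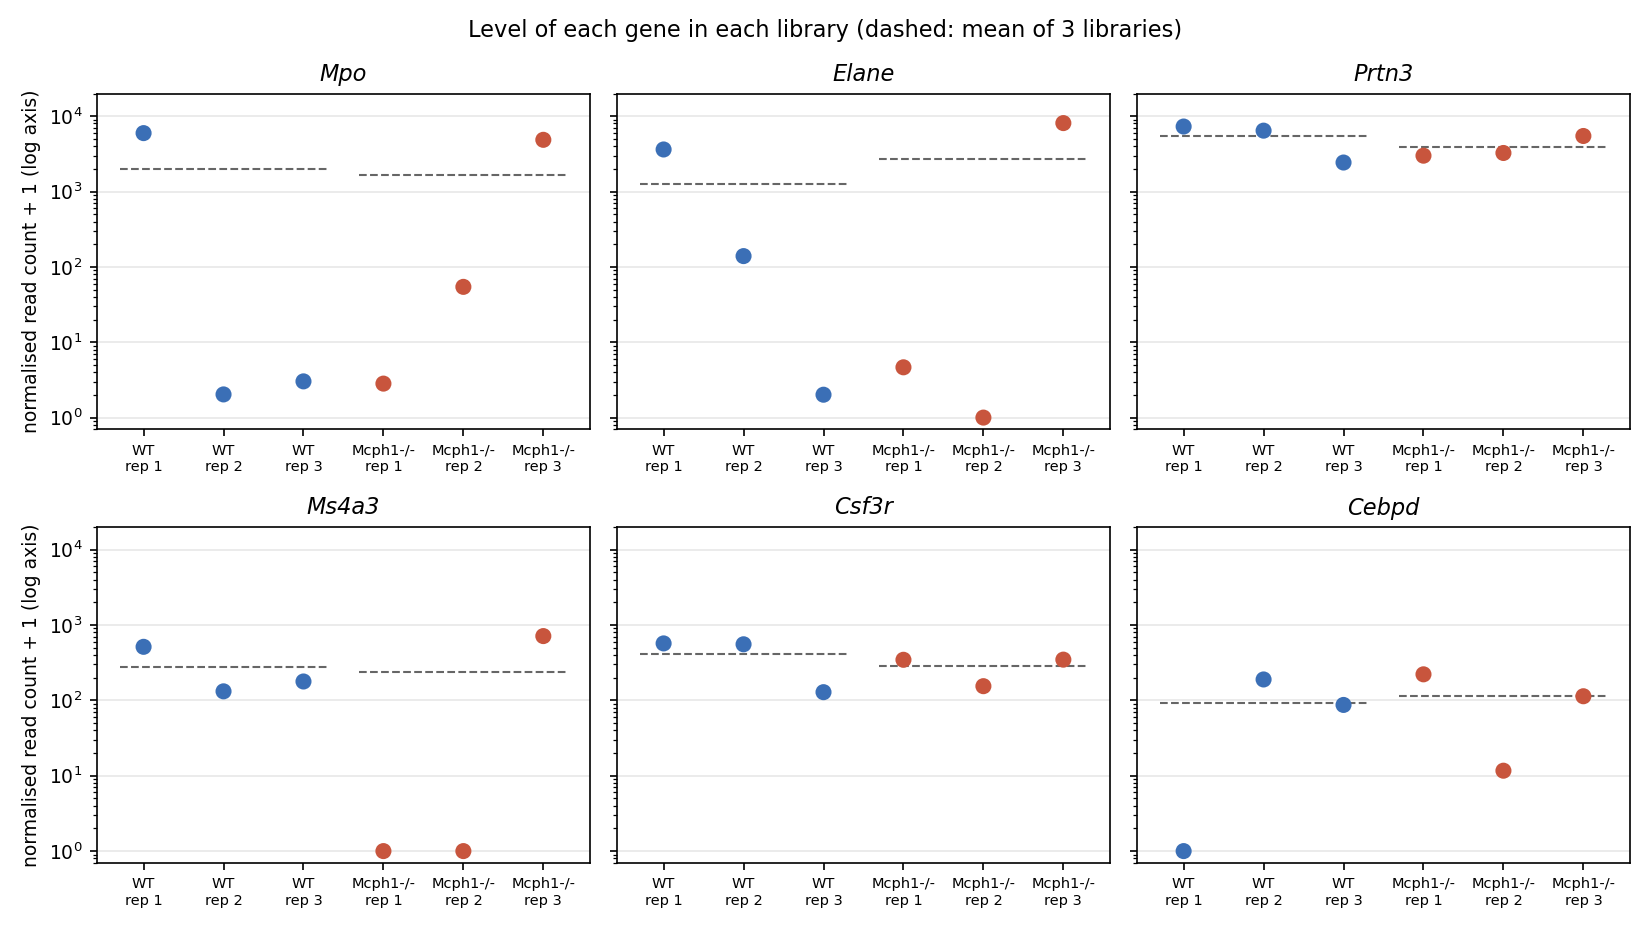
Normalised read count plus 1 (log axis) of each of the 6 genes in each library, with WT libraries in blue, Mcph1-/- libraries in red and a dashed line at the mean of 3 libraries. Mpo and Elane lie at 3614 or higher in WT replicate 1 and Mcph1-/- replicate 3 and at 138 or lower elsewhere, while Prtn3 stays between 2425 and 7287.

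Per kilobase of exonic sequence, the order within the rich libraries differed. The read ratios above and the ranks below are not scaled for gene length. In WT replicate 1, Prtn3 stood at 4208, Elane at 3673 and Mpo at 1740 normalised reads per kilobase. In Mcph1-/- replicate 3, Elane led at 8227, followed by Prtn3 at 3152 and Mpo at 1418. In the other 4 libraries Prtn3 held 1400 to 3710, and Elane and Mpo at most 140 and 15.6. Ms4a3, Csf3r and Cebpd were at 378 or lower in every library. By rank on the normalised count itself, Elane was number 93 of the listed genes in Mcph1-/- replicate 3 and number 409 in WT replicate 1, and Mpo number 228 and 189.

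The progenitor marker Ms4a3 followed part of this pattern. It stood at 513, 131 and 177 in WT and at 0, 0 and 712 in Mcph1-/-. The highest library of each genotype was the one richest in Mpo and Elane, yet WT replicates 2 and 3 held 127 and 175 Ms4a3 reads beside 1 and 2 reads of Mpo. Mcph1-/- replicate 3 exceeded replicates 1 and 2 by at least 260-fold and 290-fold at the floor of 3 reads per library, and 0 reads allow a normalised count of up to 2.74 and 2.46 there. The table lists 1027 genes read in 4 libraries and none read in fewer, so Ms4a3, read in 4, is at the edge of what is listed.

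The receptor and the transcription factor behaved otherwise. Csf3r was read in every library, at 569, 554 and 128 in WT and 345, 153 and 346 in Mcph1-/-. WT replicate 3 and Mcph1-/- replicate 2 were the low libraries, and the groups overlapped. Cebpd stood at 0, 189 and 86.0 in WT and at 221, 10.7 and 112 in Mcph1-/-. WT replicate 1, the WT library richest in Mpo and Elane, thus had 0 Cebpd reads, allowing a normalised count of up to 3.25, while Mcph1-/- replicate 3 had 126. Spidr, whose exons overlap Cebpd, did not share that zero, at 166, 0 and 228 in WT and 368, 170 and 154 in Mcph1-/-.

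The design sets WT against Mcph1-/-, and limma-trend on log2(value + 1) over 10846 genes called 4 genes, or 0.0369%, at an adjusted p under 0.05. Of the 6 members 0 were called, also by edgeR, DESeq2 and limma-voom, and 836 genes over the whole table had an unadjusted p under 0.05 by limma-trend. The ranges of the 2 genotypes overlapped for all 6 members, whereas they did not overlap for 14.2% of the genes tested. As the members were chosen on these libraries, nothing is read from either count. Mean normalised counts with SDs (n = 3) were 1987 ± 3440 in WT and 1637 ± 2788 in Mcph1-/- for Mpo, 1251 ± 2048 and 2700 ± 4673 for Elane, and 5380 ± 2594 and 3899 ± 1357 for Prtn3. They were 274 ± 209 and 237 ± 411 for Ms4a3, 417 ± 251 and 282 ± 111 for Csf3r, and 91.5 ± 94.4 and 115 ± 105 for Cebpd. For Mpo, Elane, Ms4a3 and Cebpd the SD exceeded the mean in at least 1 genotype.

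For Mpo and Elane the sign of the difference depended on how libraries were averaged. The mean count of Mpo in Mcph1-/- was 0.824 times that in WT, while the difference of mean log2 values (Mcph1-/- minus WT) was 1.45 with an SE of 3.61. The mean count of Elane was 2.16 times that in WT, while its log2 difference was -1.58 with an SE of 3.74. The log2 difference was -0.37 (SE 0.42) for Prtn3, -0.38 (SE 0.73) for Csf3r, -4.68 (SE 2.57) for Ms4a3 and 1.38 (SE 2.27) for Cebpd, and the median over all tested genes was 0.08. Ms4a3 combined a log2 difference of this size with mean counts of 274 and 237, because 2 of its Mcph1-/- libraries were at 0. Leaving out 1 library turned the sign for Mpo (-0.57, -0.28 and -1.42 without WT replicate 2, WT replicate 3 or Mcph1-/- replicate 3) and for Elane (0.95 without Mcph1-/- replicate 2, and above 0 also without WT replicate 1). It also did so for Cebpd, at -0.95 without WT replicate 1, and for Csf3r, at 0.01 without Mcph1-/- replicate 2, but not for Prtn3 or Ms4a3.

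**Figure D2:**
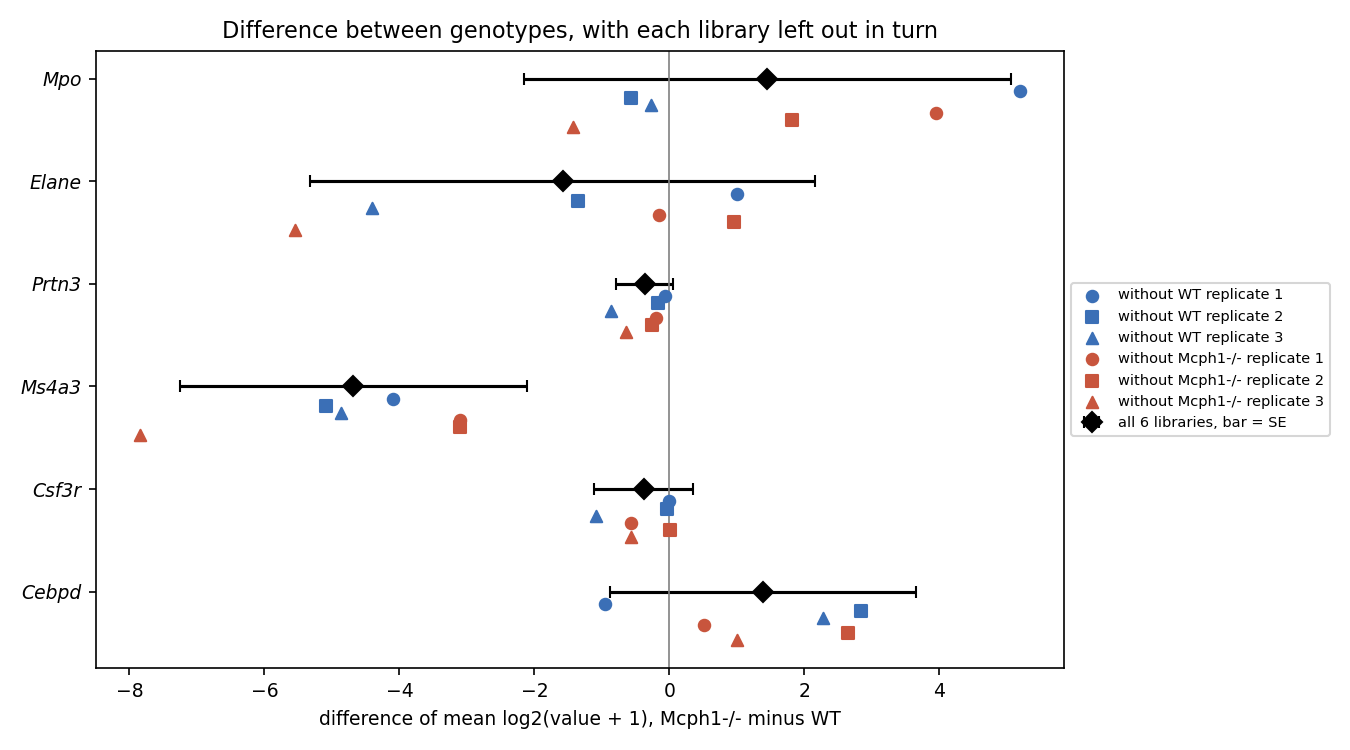
Difference of mean log2(value + 1), Mcph1-/- minus WT, for each gene with all 6 libraries (black diamond, bar = SE) and with each library left out in turn (coloured symbols). Estimates for Mpo run from -1.42 to 5.19 and those for Elane reach down to -5.54 and lie above 0 in 2 of 6 cases, while all those for Prtn3 lie between -0.87 and -0.07.

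Several members were chosen for being high in single libraries, so the standings in this paragraph describe that choice and are no result. The spread within genotypes set Mpo and Elane at the far end of the table. Their residual SDs on the log2 scale were 5.98 and 6.23, against a median of 0.88 over all tested genes, and 99.98% and 99.99% of these genes had a lower value. The residual SD was 3.94 for Ms4a3, 3.29 for Cebpd, 0.99 for Csf3r and 0.70 for Prtn3, the last being below the median. Of 1883 other genes with a mean within 2-fold of that of Mpo, 1 (0.0531%) had any library at 3 reads or fewer, and that gene was Elane. Mpo had 3 such libraries. Genes read in fewer than 4 libraries are not listed, so any of like mean are missing from this share. Near-absence in at least 1 library was common at lower levels. It was seen in 57.6% of 3501 genes with a mean like that of Cebpd, and in 25.9% of 4277 like that of Ms4a3. Ms4a3 itself had 2 such libraries, and only 5.82% of those 4277 genes had at least 2. With a bound set after the values were seen, 16 of 9956 genes with a mean of at least 50 (0.161%) were at least 10-fold above the next library in both genotypes, counting values under 3 reads as 3. In 2 of these 16, Mpo and Elane, the high libraries were WT replicate 1 and Mcph1-/- replicate 3. Other pairs held as many or more, with 5 genes for WT replicate 1 and Mcph1-/- replicate 1. WT replicate 2 with Mcph1-/- replicate 3, and WT replicate 3 with each Mcph1-/- library, held 2 genes per pair. The pair of WT replicate 1 and Mcph1-/- replicate 2 held 1.

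Genes of later neutrophil stages were arranged by genotype. S100a8 (with S100a9 a subunit of calprotectin, a cytosolic protein of neutrophils and not a granule protein) stood at 17462, 18645 and 30971 in WT and at 191, 327 and 153 in Mcph1-/-, and Ngp (neutrophilic granule protein) at 10516, 13235 and 17184 in WT and at 0.912, 3.28 and 16.1 in Mcph1-/-. Mcph1-/- replicate 3, rich in Mpo and Elane, therefore held S100a8 and Ngp at the low level of the other Mcph1-/- libraries. WT replicates 2 and 3, which held 1 and 2 Mpo reads, carried both at the WT level. Of 18 later granule and neutrophil genes, written into a list with earlier results known, 6 were tested, all 6 lower in Mcph1-/- by log2 mean, with a median of -6.94 beside 0.08 over all genes. S100a8, S100a9 and Ngp passed (limma adjusted p = 3.9e-04, 0.024 and 0.0037). Camp, the cathelicidin precursor (-8.41, SE 1.01, limma adjusted p = 0.060), Anxa1 and Wfdc21 did not pass. Camp did pass in 5 alternatives: by DESeq2 (adjusted p = 1.3e-09), and by limma with a pseudocount of 16 (0.0013), with a mean of at least 50 (0.020), without Mcph1-/- replicate 2 (9.2e-04) and without Mcph1-/- replicate 3 (0.040). Ngp did not pass without any 1 of the 3 WT libraries (limma adjusted p 0.116 to 0.123), nor S100a9 without any 1 of these or Mcph1-/- replicate 1 (0.130 to 0.387). The other 12, Ltf, Lcn2, Mmp8 and Cybb among them, have no values here.

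**Figure D3:**
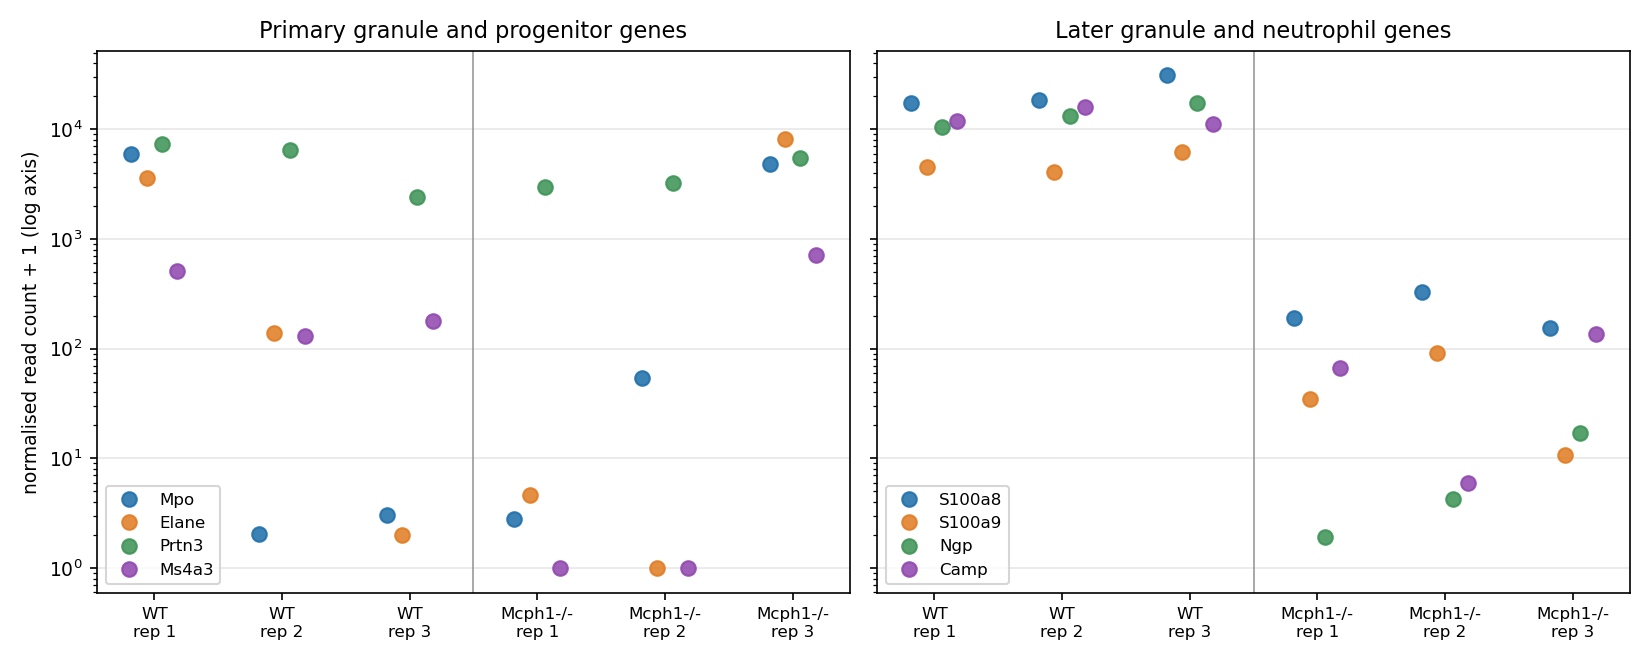
Normalised read count plus 1 (log axis) in each library of Mpo, Elane, Prtn3 and Ms4a3 (left) and of S100a8, S100a9, Ngp and Camp (right), with a line between the genotypes. Right-hand genes lie at 4111 or higher in every WT library and at 327 or lower in every Mcph1-/- library, while Mpo and Elane share their high libraries across genotypes.

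Partners of the primary granule proteins differed among themselves by library. Of 13 listed partners 10 were tested, 6 higher and 4 lower in Mcph1-/- with a median log2 difference of 0.36, and 0 passed by limma, with 3 at an unadjusted p under 0.05. Over all lists together edgeR called 2 genes, DESeq2 14 and limma-voom 1, against 4 here. The smallest p belonged to Lyz2, lysozyme, at 10866, 7454 and 12241 in WT and 4400, 4628 and 4430 in Mcph1-/- (log2 difference -1.15, SE 0.20, limma adjusted p = 0.320). It was followed by the granule membrane protein Cd63 (-0.63, SE 0.22) and by Srgn, the granule proteoglycan serglycin (0.39, SE 0.17). Ctsc, the protease that activates elastase and proteinase 3, ran from 405 to 1346, and Calr, a chaperone of myeloperoxidase, from 563 to 1222 with its highest value in Mcph1-/- replicate 3. Cst7, a protease inhibitor, was higher in the rich libraries (304 and 391) than in the others, which were at 0, 0, 85.7 and 131. Ctsg, the gene of the third protease of these granules, Prss57 and Bpi have no values here.

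Surface and effector genes of myeloid progenitors held the closest match to a member. Of 15 such genes 13 were tested, 4 higher and 9 lower with a median of -0.55, and 0 passed by limma (5 at an unadjusted p under 0.05). Ly6c2, a Ly6C antigen, stood at 271, 107 and 122 in WT and at 0, 0 and 265 in Mcph1-/-, the arrangement of Ms4a3. Clec12a, a C-type lectin, stood at 291, 262 and 120 in WT and at 0.912, 0 and 407 in Mcph1-/-. Igsf6, with the smallest p of the list (log2 difference -6.55, SE 1.64, limma adjusted p = 0.540), was at 261, 272 and 122 in WT and at 0, 0 and 9.82 in Mcph1-/-, so it was low in Mcph1-/- replicate 3 too. Gstm1 (-0.43, SE 0.15), Tyrobp (-2.42, SE 0.87) and Cd48 (4.05, SE 1.48) followed.

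Of 16 myeloid transcription factor genes 12 were tested, 3 higher and 9 lower with a median of -0.57, and 0 passed by limma (2 at an unadjusted p under 0.05). Those with the smallest p were Etv6 (-1.04, SE 0.37), Spi1, which encodes PU.1 (-0.81, SE 0.35), Myc (0.20, SE 0.16) and Runx1 (-0.93, SE 0.81). Spi1 stood at 2122, 1085 and 1274 in WT and 972, 962 and 578 in Mcph1-/-, highest in WT replicate 1 and lowest in Mcph1-/- replicate 3, the 2 libraries rich in Mpo and Elane. Cebpb, a relative of Cebpd, was at 194, 198 and 238 in WT and 44.7, 258 and 201 in Mcph1-/-, and was not at 0 in WT replicate 1. Cebpa, Cebpe, Irf8 and Klf4 have no values here. Of 22 cytokine receptor and signalling genes 15 were tested, 8 higher and 7 lower with a median of 0.06, and 0 passed by limma (1 at an unadjusted p under 0.05). Ptpn6, the phosphatase SHP-1 (-1.17, SE 0.37), the kinases Lyn (5.18, SE 2.31) and Jak2 (-1.23, SE 0.77), and the receptor subunit gene Csf2rb2 (3.85, SE 2.13) had its smallest p. Stat3, which acts below the G-CSF receptor, varied from 1005 to 1330 only.

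Markers of other cells and of the sort were set beside the 2 rich libraries. All 16 stem cell markers were listed, summing to 21113, 20428 and 24863 in WT and 18603, 17552 and 16233 in Mcph1-/-. Of these 7 were higher and 9 lower with a median of -0.13, and 0 passed by limma (3 at an unadjusted p under 0.05). Among those with the smallest p were Mllt3 (-0.61, SE 0.22), Meis1 (-0.46, SE 0.20) and Kit (-0.48, SE 0.38). Slamf1, which encodes the sorting antigen CD150 and was singled out after its values were seen, was at 0 in WT replicate 1 and 0.893 (1 read) in Mcph1-/- replicate 3. It was at 224 and 497 in the other WT libraries and 65.7 and 395 in the other Mcph1-/- libraries. Other stem cell markers went both ways. Within each genotype Tie1 was also lowest in the 2 rich libraries (2.17 and 119), while Fgd5 was highest there (264 and 205). The other sorting antigens were read there, Kit at 2208 and 1726 and Ly6a (Sca-1) at 2057 and 1726. Cd34, which the sort selects against, was at 500 and 417 in the 2 libraries and 201 to 569 in the others. Whether the sorted cells of these libraries differed was not tested, and in such bulk libraries fewer cells of a type and less RNA per cell cannot be told apart.

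Of 11 monocyte and macrophage markers 3 were listed, all 3 lower by log2 mean (median -0.70), and 0 passed by limma (0 at an unadjusted p under 0.05), with sums of 698, 811 and 1050 in WT and 372, 594 and 443 in Mcph1-/-. Lgals3 was at 0 in Mcph1-/- replicate 1 and Cd68 in WT replicate 1, and Csf1r, Ccr2 and Cd14 have no values here. The erythroid sums were 20262, 21212 and 41963 in WT and 57442, 52237 and 58431 in Mcph1-/-, with Car1 (3.53, SE 0.35) 1 of 12 tested genes to pass upward (limma adjusted p = 0.024). Without Car1, left out after the values were seen, the sums were 18634, 19235 and 37396 in WT and 27404, 28521 and 26586 in Mcph1-/-. Most of each was Car2, at 14691, 16579 and 19712 in WT and 18233, 20860 and 18908 in Mcph1-/- (0.19, SE 0.14). WT replicate 3 also held 8516 of Hba-a1. Of the 12, 8 were higher and 4 lower with a median of 0.56, and 6 had an unadjusted p under 0.05. Blvrb (0.92, SE 0.19), Klf1 (2.40, SE 0.54) and Gata1 (5.11, SE 1.81) did not pass. Nor did the globin genes Hba-a1 (-3.40, SE 1.21), Hbb-bs (-5.03, SE 2.10) and Hba-a2 (-3.27, SE 1.79), lower by log2 mean and highest in WT replicate 3. Zeros were seen, among others, for Gata1 in WT replicate 3, Epor in WT replicate 2, Tfrc in replicate 1 of both genotypes and Hbb-bs in Mcph1-/- replicate 2. The call of Car1 ended without WT replicate 1 or 2 or any 1 Mcph1-/- library (limma adjusted p 0.084 to 0.191), and by edgeR (0.130). Megakaryocyte sums were 4774, 2191 and 1388 in WT and 1038, 1851 and 2482 in Mcph1-/-, highest in the libraries rich in Mpo and Elane. This rests on Pf4, at 3866 and 1525 there, since without it the sums were 908, 940 and 793 in WT and 881, 867 and 957 in Mcph1-/-. Of 7 tested, 0 passed by limma (0 at an unadjusted p under 0.05), and the smallest p belonged to Gp1bb (0 in WT replicates 1 and 3), Pf4, Ppbp (0 in WT replicate 2) and Plek. Cpa3, a mast cell protease and the 1 listed of 10 mast cell, basophil and eosinophil markers, was also highest there, at 1332 against 81.4 and 0 in WT, and at 201 against 19.2 and 140 in Mcph1-/-. Lymphoid sums over 3 listed of 11 markers ran from 374 to 2472, with Cd79a and Ebf1 at 0 in WT replicate 3 and Mcph1-/- replicate 1, and 0 passed by limma (0 at an unadjusted p under 0.05). The part of any of these cells in the levels of Mpo and Elane was not tested.

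Genes near the members gave a view of the chromosome around them. Within 50 kb of Elane, 6 of 9 protein-coding neighbours were listed. Arid3a, which encodes a DNA-binding protein, stood at 175, 3.09 and 0 in WT and 63.9, 9.84 and 59.8 in Mcph1-/-. Med16, a Mediator subunit gene, was at 176, 27.8 and 3.04 in WT and 31.0, 221 and 90.2 in Mcph1-/-, and Plppr3 at 125, 25.8 and 0 and then 269, 91.1 and 289. R3hdm4 ran from 1285 to 1885, and Ptbp1 was at 18.4, 335 and 0 in WT and 286, 130 and 422 in Mcph1-/-. WT replicate 1 was thus the highest WT library for 5 of the 6 (Prtn3, Plppr3, Med16, R3hdm4 and Arid3a). Mcph1-/- replicate 3 was the highest Mcph1-/- library for 3 of the 6, Prtn3, Plppr3 and Ptbp1. The same shares over all genes were not taken, so nothing is read from these counts. Prtn3 is itself a member, and its exons overlap those of Plppr3. The antisense gene Gm17134, also listed there, had at most 31.9. Cfd, the gene downstream of Elane, has no values here. Near Mpo, Supt4a ran from 907 to 1478 and the host transcript Mir142hg from 107 to 181, and Lpo, the lactoperoxidase gene 2015 bases away, has no values here. Mrps15, 2485 bases from Csf3r, ran from 1320 to 2304. Oscp1, also near Csf3r, was at 31.4, 126 and 0 in WT and 0, 113 and 27.7 in Mcph1-/-, and the pseudogene Rpl28-ps3 had at most 47.3. Mzt2 near Cebpd ran from 521 to 833 and Prkdc from 18.5 to 353.

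**Figure D4:**
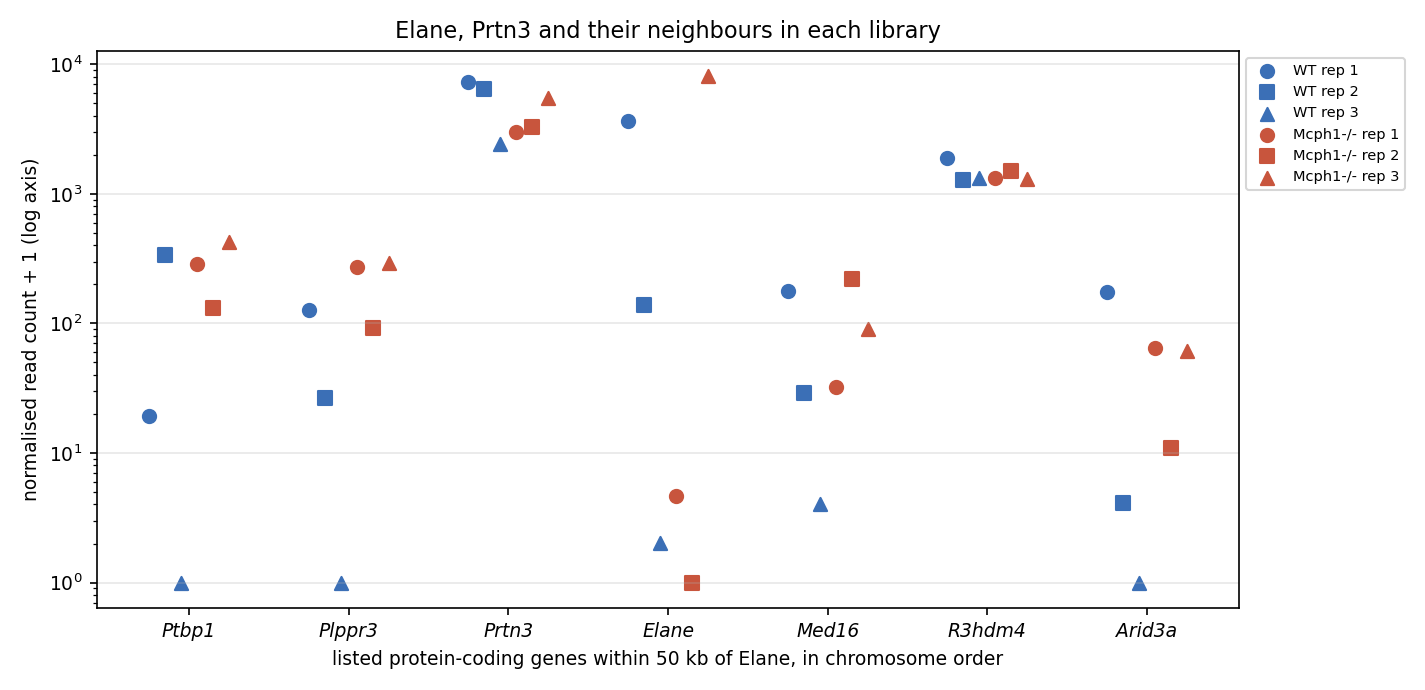
Normalised read count plus 1 (log axis) of Elane, Prtn3 and the other listed protein-coding genes within 50 kb of Elane, in chromosome order, with 1 symbol per library. Elane spans 0 to 8095, while Prtn3 beside it stays between 2425 and 7287 and R3hdm4 between 1285 and 1885.

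Likeness to other genes was measured by Pearson's r of log2(value + 1) over the 6 libraries, as a description over 8806 named genes with a mean of at least 50. Ly6c2 was most like Ms4a3 (r = 0.997), followed by H2-Ob (0.990) and Ghr (0.988), which share its 2 Mcph1-/- libraries at 0. For Mpo the closest were Rcc2 (0.980), Mapk8ip3 (0.970) and Hdac5 (0.966). Rcc2 stood at 1652, 501 and 606 in WT and 586, 896 and 1277 in Mcph1-/-, so it shared the order of libraries but not the size of the contrast. For Elane the closest were Ext2 (0.981), Coa4 (0.981) and Ubxn6 (0.978), of which Ext2 ran from 563 to 1512. Prtn3 was closest to Cenpt (0.989), St3gal4 (0.988) and Zswim9 (0.976), and Csf3r to F5 (0.990), Ppip5k1 (0.985) and Zfp608 (0.985). Cebpd was closest to Tspan33 (0.995), Slc9a3r2 (0.992) and Gbf1 (0.988), all 3 of which were at 0 in WT replicate 1. An r over 0.95 was reached by 3 genes for Elane, 8 for Mpo, 11 for Prtn3, 29 for Ms4a3, 32 for Csf3r and 45 for Cebpd.

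Among the members themselves, likeness over the same 6 libraries was highest for Elane with Prtn3 (r = 0.865) and Csf3r with Prtn3 (0.865), and stood at 0.764 for Elane with Mpo and for Elane with Ms4a3. Mpo and Prtn3 reached 0.582. Cebpd had negative values with all 5 others, from -0.64 with Mpo to -0.13 with Csf3r. For Mpo the positive values rest on the 2 rich libraries. Elane also had an intermediate library, WT replicate 2 at 138, so its values do not rest on those 2 alone. With 6 libraries, all these values describe the arrangement only.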

How the data were processed

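RNA-seq reads were counted per gene in 6 libraries of 200 sorted cells. Per the submitters' processing notes, mm10 was the genome build and the tools included DESeq2, featureCounts, HISAT2 and Trim Galore 0.6.6, without role or order. The sources used here give neither the annotation release nor the strandedness. The values are a signal that the authors deposited, in which each library's counts carry a common scale factor: 100% were whole multiples of the value of 1 read (tolerance 0.001 reads), and size factors recomputed by the median of ratios equalled them (0.922 to 1.22). Recovered totals were 8102605 to 10455908 reads per library. Genes without a symbol (444) took 2.22% to 2.38% of reads and were kept. Replicates all differed beyond sampling noise (chi-square over its degrees of freedom at least 82.9).

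Genes with a mean of at least 10 were tested by limma-trend (limma 3.58.1, R 4.3.3) on log2(value + 1), over all 6 libraries with a single genotype term and Benjamini-Hochberg adjustment (threshold 0.05). The added 1 understates changes of low genes. edgeR 4.0.16, DESeq2 1.42.0 and limma-voom on the recovered reads, TMM scaling, other pseudocounts and filters, a replicate block and leaving out each library were alternatives. The gene tests were tested on simulated data. Floors are 3 reads per library. Exonic lengths and positions come from GENCODE vM21 and promoters from RefSeq GRCm38.p6.

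The members and lists were chosen with earlier results of these data known. Genes named are the members, the 3 genes most like each, listed genes within 50 kb, and per list those that passed and up to 4 with the smallest p. Others (among them Ctsc, Calr, Ly6c2, Clec12a, Cebpb, Stat3, Slamf1, Tie1, Fgd5, Ly6a, Cd34, Car2, Hba-a1 and Hba-a2) were named after their values were seen. Values of 2 list genes that the rule would name are not reported here.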

Additional observations from a re-analysis of the deposited data

How the results depend on the processing

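Of the 6 members, 0 were called by limma, edgeR, DESeq2 or limma-voom under any of the 15 alternatives. Over these the log2 difference ran from -1.42 to 5.19 for Mpo, -5.54 to 1.13 for Elane, -0.87 to -0.07 for Prtn3, -7.84 to -0.18 for Ms4a3, -1.09 to 0.01 for Csf3r and -0.95 to 2.83 for Cebpd. Mpo was at -0.26 by edgeR and -0.28 by DESeq2, and Elane at 1.13 and 1.11, which models of mean counts give in place of mean logs, and Ms4a3 was at -0.18 and -0.21. The 4 genes past the threshold numbered 2 by edgeR, 234 by DESeq2 (106 higher, 128 lower), 1 by limma-voom, 5 with a pseudocount of 16 or a mean of at least 50, and 1 to 4 with a library left out. Within the fixed lists 4 genes passed, against 2 by edgeR, 14 by DESeq2, 1 by limma-voom and 1 to 4 with a library left out, and why the tools differ was not tested. Ngp did not pass by limma-voom, nor S100a9 by edgeR, limma-voom or the replicate block, S100a8 failed by limma-voom only, and Car1 did not pass by edgeR. The replicate block gave 3 genes in place of 4. Same-numbered libraries did not deviate together (r = -0.01, 0.02 and -0.03 across genes). Given the wide spread among replicates, this cannot decide whether the numbers pair libraries. TMM scaling moved the median of all genes from 0.08 to 0.11. Some list medians changed sign in at least 1 of the 15 alternatives. They ran from -3.48 to 0.02 for monocyte and macrophage markers and from -0.09 to 1.52 for erythroid markers. For cytokine receptor and signalling genes the range was -0.34 to 0.16. The other list medians given above kept their sign. A level of 1 to 3 reads is not told from 0 at this depth.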
